A study of Homo sapiens with 12 samples.

Results

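The WNT feedback genes AXIN2, NKD1, DKK1, NOTUM, RNF43, ZNRF3, LGR5, TCF7, LEF1 and ASCL2 were followed across untreated and paeonol-treated ovarian cancer cells. They were found by gene symbol and are 10 of the 46350 named genes counted in each library. The RNA sequencing data hold 12 libraries in 4 groups of 3, described as biological triplicates: untreated SKOV3, SKOV3 with paeonol (SKOV3_PAE), untreated SKOV3/DDP, and SKOV3/DDP with paeonol (SKOV3/DDP_PAE). SKOV3 is a cisplatin-sensitive human epithelial ovarian cancer line, and SKOV3/DDP is described as its cisplatin-resistant counterpart; its descent from SKOV3 was not tested here. Paeonol (PAE) is a plant phenol. Each line is a single line, the labels give neither the dose nor the time of PAE, and no group carries another agent or engineered allele. Levels are given as CPM, counts scaled to a common library total with TMM factors of all 12 libraries.

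In the WNT pathway, a ligand bound to a Frizzled receptor and LRP5 or LRP6 stops the breakdown of β-catenin, which then joins TCF and LEF proteins on DNA and switches on target genes. Several of these targets act on the pathway itself. Some dampen it inside the cell (AXIN2, NKD1), some block or inactivate the ligand outside it (DKK1, NOTUM), and RNF43 and ZNRF3 remove the receptors from the membrane. LGR5 binds R-spondins, which hold RNF43 and ZNRF3 in check, while TCF7, LEF1 and ASCL2 are transcription factors. LGR5 and ASCL2 are known best from intestinal stem cells, and AXIN2, NKD1 and RNF43 are widely used as readouts of β-catenin activity.

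Because TCF and LEF proteins read short DNA words, the start regions of the genes were searched for them. RefSeq windows on GRCh38.p14, from 250 bases before the start to 50 bases after it, were at hand for 4 of the 10 genes (DKK1, RNF43, TCF7 and LEF1). The words searched on both strands were CTTTGAA with CTTTGAT and, besides these, CTTTGTA with CTTTGTT, which cannot overlap one another on the same strand. DKK1 and TCF7 are shown because a window of each holds such words, in capitals. RNF43 and LEF1 are shown because they were among the genes that differed most between the lines and their printed windows hold none. A second RNF43 window, chr17:58402672-58402971, holds none either. The TCF7 window at its earlier start, chr5:134115363-134115662, also holds none. The RNF43 and LEF1 windows lie inside loci that reach 58418894 and 108168932 on the reverse strand, and bases outside the windows were not searched. The DKK1 window is chr10:52314031-52314330 on the forward strand, the TCF7 window, at the later of its starts, is chr5:134123368-134123667 on the forward strand, the RNF43 window is chr17:58417485-58417784 on the reverse strand, and the LEF1 window is chr4:108166252-108166551 on the reverse strand.
DKK1: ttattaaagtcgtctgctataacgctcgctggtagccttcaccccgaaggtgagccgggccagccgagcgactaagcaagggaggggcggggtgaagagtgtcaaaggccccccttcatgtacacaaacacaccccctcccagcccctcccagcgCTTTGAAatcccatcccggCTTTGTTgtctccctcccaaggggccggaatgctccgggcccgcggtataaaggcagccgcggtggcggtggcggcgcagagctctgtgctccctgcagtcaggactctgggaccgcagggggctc
TCF7: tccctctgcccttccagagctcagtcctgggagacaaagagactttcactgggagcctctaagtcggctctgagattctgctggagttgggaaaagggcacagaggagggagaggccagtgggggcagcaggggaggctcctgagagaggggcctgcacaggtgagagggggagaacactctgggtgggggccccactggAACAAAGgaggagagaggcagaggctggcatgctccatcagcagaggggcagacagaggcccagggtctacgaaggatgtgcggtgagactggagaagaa
RNF43: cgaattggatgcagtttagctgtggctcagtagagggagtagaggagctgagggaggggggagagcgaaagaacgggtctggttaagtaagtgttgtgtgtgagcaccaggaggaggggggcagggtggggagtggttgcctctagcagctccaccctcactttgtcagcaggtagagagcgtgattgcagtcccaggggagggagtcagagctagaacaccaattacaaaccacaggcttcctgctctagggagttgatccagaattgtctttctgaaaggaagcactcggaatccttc
LEF1: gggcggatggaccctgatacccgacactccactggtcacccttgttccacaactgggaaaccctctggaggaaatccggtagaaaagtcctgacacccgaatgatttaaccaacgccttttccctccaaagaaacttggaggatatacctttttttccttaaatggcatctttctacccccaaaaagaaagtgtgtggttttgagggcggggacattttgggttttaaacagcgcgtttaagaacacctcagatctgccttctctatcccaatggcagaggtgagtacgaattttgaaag
The DKK1 window holds CTTTGAA with its first base 95 bases before the start and CTTTGTT 76 bases before it. The TCF7 window holds CTTTGTT on the opposite strand, printed as AACAAAG and beginning 50 bases before the start. Of the 35116 windows in the table, 13.8% hold at least 1 of these words and 1.58% at least 2, so a match describes the letters and does not mark a site of binding.

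Libraries held between 14610008 and 18263479 counts. The untreated SKOV3 libraries detected 18478 to 18766 genes, and the other 9 detected 22078 to 23823. The deviation of a gene from its mean over all libraries was higher for GC-rich genes in all 3 libraries of untreated SKOV3 (Spearman correlation with GC content of 0.676 to 0.683 over 15090 genes) and lower in the other 9 (−0.541 to −0.329). Values of the feedback genes with this trend removed are therefore given where they change a call. The lines were also compared with PAE in both, a contrast without the untreated SKOV3 libraries, although all 12 libraries enter its fit. Among the untreated SKOV3/DDP libraries, replicate 2 stood apart, with a mean chi-square per gene of 102 and 93.6 against its group mates, which differed from each other by 16.7. Where a group holds no count of a gene, up to 3 counts of its total are still possible, which is 0.0862 CPM in SKOV3, 0.0537 in SKOV3_PAE, 0.0606 in SKOV3/DDP and 0.0501 in SKOV3/DDP_PAE, on the same TMM scale as all folds from counts; this limit and the count intervals below cover counting error only. AXIN2, LGR5 and LEF1 reached 10 counts in every library of a group only in the SKOV3/DDP groups, and DKK1 only in the SKOV3 groups.

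The labelled cell type was compared with marker genes of epithelia. Of 10 markers of ovarian or Müllerian epithelium, 5 were tested between the untreated lines. Of these, 3 were higher in SKOV3/DDP (MSLN, FOLR1 and MECOM, the last not called with the GC trend removed) and 2 lower (PAX8 and MUC16). Over all genes tested between the untreated lines, 46.1% were called higher and 38.5% lower. PAX8, the transcription factor used to identify that lineage, had a mean of 29.7 CPM in SKOV3, 13.2 in SKOV3_PAE, 4.13 in SKOV3/DDP and 2.45 in SKOV3/DDP_PAE. SOX17 was at 0 in all groups, WT1 and ESR1 were at 0 in SKOV3, and EMX2 was at 0 in SKOV3, SKOV3/DDP and SKOV3/DDP_PAE. The summed list, most of it the surface protein gene MSLN, ranged over 179–184 CPM in SKOV3, 41.5–98.6 in SKOV3_PAE, 377–478 in SKOV3/DDP and 269–393 in SKOV3/DDP_PAE. The 9 markers of intestinal epithelium reported here summed to 0.254–1.11 CPM in SKOV3, where 7 of them were at 0, and to 0.263–0.523 in SKOV3_PAE, where 3 were at 0. In SKOV3/DDP they summed to 559–607 CPM, with 6 of 9 at 1 CPM or more, and in SKOV3/DDP_PAE to 180–272. CDX2, the master factor of intestinal identity, had a mean of 163 CPM in SKOV3/DDP and 39.0 in SKOV3/DDP_PAE, and was at 0 in SKOV3. PHGR1 was at 0 in all groups. CDH17, an adhesion gene of intestinal cells, had means of 339 and 145 CPM in the same groups and was also at 0 in SKOV3. FOLR1, the folate receptor gene, had means of 0.118 CPM in SKOV3 and 36.0 in SKOV3/DDP. Of the 6 markers of epithelium in general, EPCAM, CDH1, KRT8, KRT18 and KRT19 were higher in untreated SKOV3/DDP, and KRT7, a keratin of ovarian and other glandular epithelia, was lower, with a mean of 3610 CPM in SKOV3 and 1.22 in SKOV3/DDP. The SKOV3/DDP libraries thus differed from SKOV3 in lineage markers as well as in WNT genes, and the part of this difference in the results below was not tested.

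**Figure D1:**
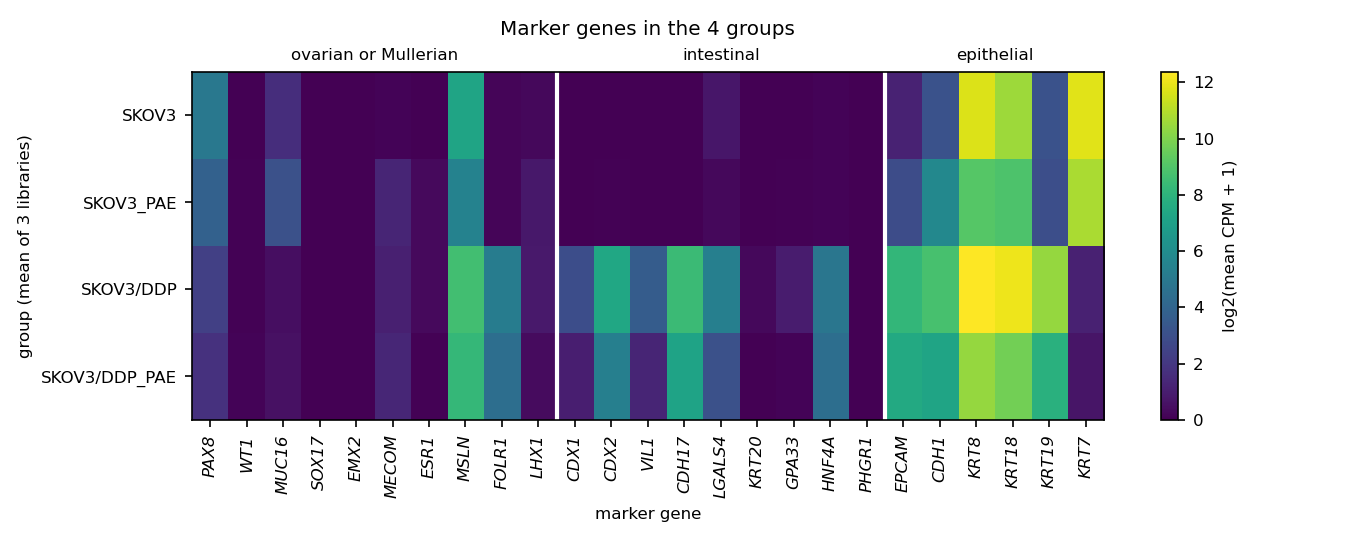
Mean level of each marker gene (columns) in the 4 groups (rows) as log2(mean CPM + 1), with white lines between the ovarian or Müllerian, intestinal and epithelial lists. CDX2, CDH17 and KRT19 are bright only in the SKOV3/DDP rows, and KRT7 only in the SKOV3 rows.

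To compare the chemoresistant with the chemosensitive line, the 3 untreated SKOV3/DDP libraries were set against the 3 untreated SKOV3 libraries with edgeR's quasi-likelihood test, which is 2-sided, and Benjamini-Hochberg adjustment over 15323 genes. At an adjusted p under 0.05, 7 of the 10 feedback genes were higher in SKOV3/DDP (AXIN2, NKD1, RNF43, ZNRF3, LGR5, TCF7 and LEF1) and 3 were lower (DKK1, NOTUM and ASCL2). Of all genes tested, 46.1% were called higher and 38.5% lower. With so many calls, the number of feedback genes called says little, and their sizes are given one by one. The median log2 fold change was 2.28 over the 10 genes and 0.41 over all genes tested. This median and those below only describe the 10 genes, which were chosen with earlier results of these data known. Of these, AXIN2, LGR5 and LEF1 reached 10 counts in every library only in the SKOV3/DDP groups, and DKK1 only in the SKOV3 groups. By library size only, the median of all genes moved to 1.16. NOTUM (−0.63) and ASCL2 (−0.78) kept their direction there but were no longer called. With the GC trend removed both turned higher (1.45 and 1.59), which gave 9 of the 10 genes higher and 1 lower. Of 13982 genes tested in that setting, 5841 were called higher and 3950 lower. Calls and directions of NOTUM and ASCL2 thus depend on the processing. With PAE in both lines, 8 of the 10 genes were higher in SKOV3/DDP and 2 were lower (DKK1 and NOTUM), with a median of 1.54 over the 10 genes against 0.06 over all 17133 genes tested, of which 27.5% were called higher and 27.1% lower.

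To see what PAE did to these genes, each line was compared with and without it in a fit of all 12 libraries over 17133 genes. In SKOV3/DDP, 4 of the 10 genes fell (AXIN2, RNF43, LGR5 and NOTUM), and the other 6 did not pass, against 14.7% of all genes called lower and 11.8% called higher. None of the 10 rose at an adjusted p under 0.05 in edgeR, and 0 did so at an unadjusted p under 0.05, with DESeq2 or with limma-voom. The median log2 fold change of the feedback genes, leaving out DKK1, which had no fold, was −0.69, against 0 over all genes. In SKOV3, 2 genes rose (DKK1 and LGR5), ASCL2 fell, and 7 did not pass, against 42.6% of all genes called higher and 32.7% called lower. Their median was 0.11, against 0.48 over all genes. By library size only it was 0.99, against 1.36 over all genes, with 7 of the 10 called higher and 1 lower. Of all 17133 genes, 9058 were then called higher and 3834 lower. With the GC trend removed it was 0.98, against 0.59 over all genes. The 4 genes then called higher were AXIN2, NOTUM, ZNRF3 and TCF7, and 0 were lower, so DKK1, LGR5 and ASCL2 lost their calls. Of 15090 genes tested in that setting, 6323 were called higher and 2125 lower. By the interaction term of the same fit, the log2 change with PAE was lower in SKOV3/DDP than in SKOV3 for AXIN2, RNF43 and LGR5. That change was higher in SKOV3/DDP for ASCL2. Of all genes, 25.5% were called higher and 37.4% lower by that term. With the GC trend removed it called 6 of the 10 genes lower and 0 higher, and 5061 of the 15090 genes tested lower and 1926 higher. These comparisons share their control libraries, and their values stand side by side below without being counted as separate evidence.

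**Figure D2:**
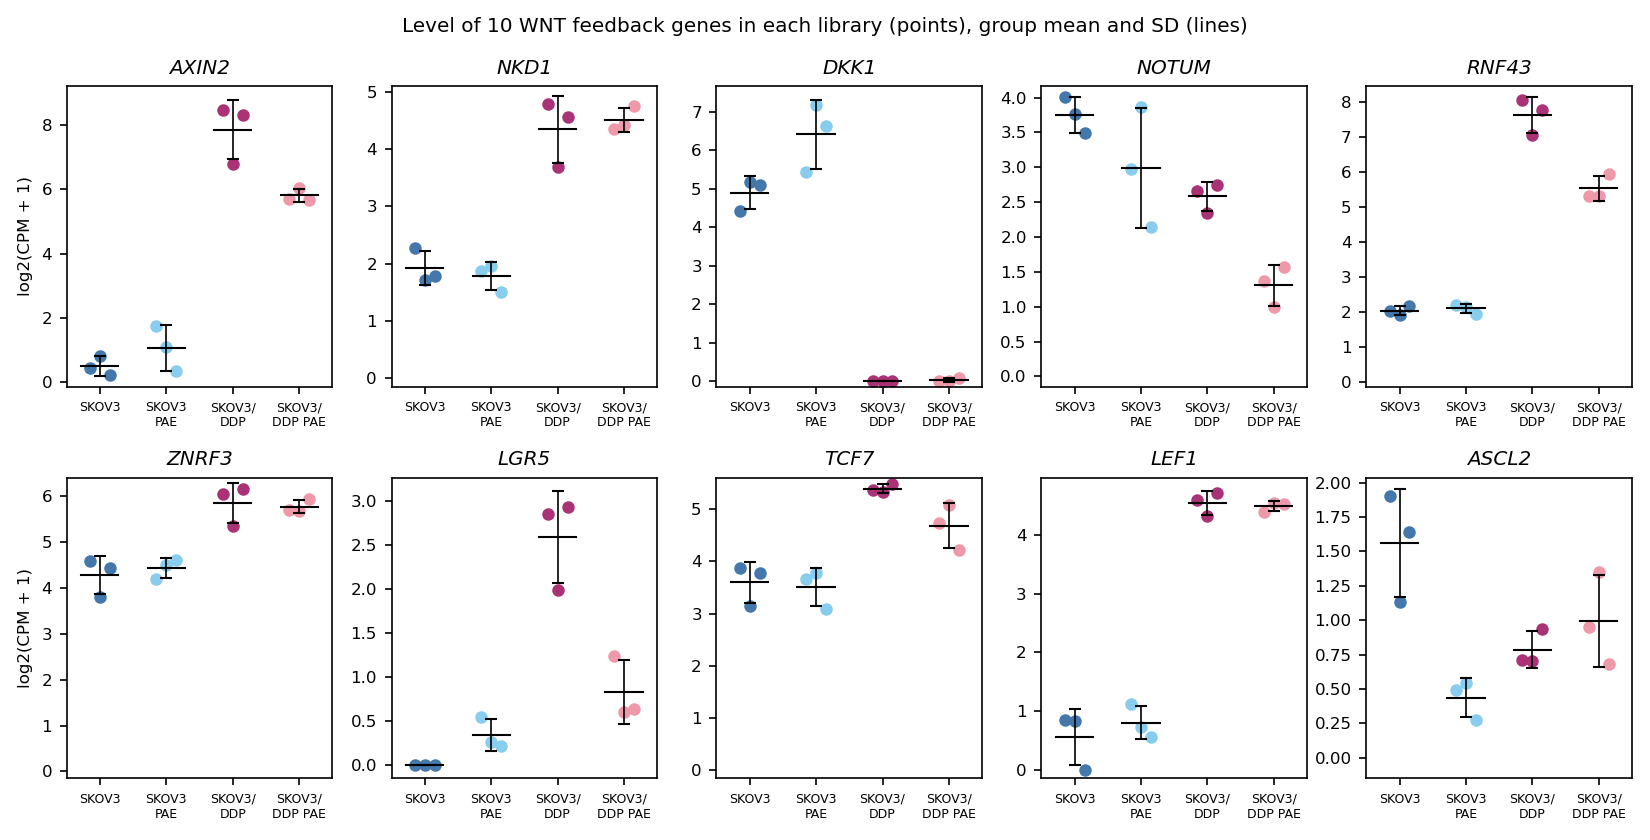
Level of each feedback gene as log2(CPM + 1) in each of the 12 libraries (points), with the mean and SD of the 3 libraries of a group (lines); each panel has its own axis from 0. AXIN2, RNF43 and LGR5 peak in untreated SKOV3/DDP, NKD1, ZNRF3 and LEF1 are high in both SKOV3/DDP groups, and DKK1 is high in the SKOV3 groups alone.

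AXIN2, the scaffold of the β-catenin destruction complex that is induced by WNT signalling, is encoded at chr17:65528563-65561648 on the reverse strand (NCBI Gene ID 8313). Untreated SKOV3 held 0.355, 0.767 and 0.17 CPM of it, and SKOV3_PAE held 2.38, 1.12 and 0.263 CPM. In untreated SKOV3/DDP it reached 355, 110 and 317 CPM, and in SKOV3/DDP_PAE it was at 51.3, 64.8 and 50.2 CPM. Every SKOV3/DDP library lay above every SKOV3 library, the PAE-treated SKOV3/DDP libraries lay below the untreated ones, and the SKOV3 groups overlapped. The group means were 0.43 ± 0.306, 1.25 ± 1.07, 261 ± 131 and 55.4 ± 8.1 CPM (SD, n = 3 each). Between the untreated lines its log2 fold change was 9.15 (standard error 0.66, adjusted p = 4.23e-06 from edgeR), and it was 5.48 (standard error 0.59, adjusted p = 1.95e-06) with PAE in both. PAE lowered AXIN2 in SKOV3/DDP by a log2 fold change of −2.23 (standard error 0.48, adjusted p = 0.00428). Untreated replicate 2, at 110 CPM, was the lowest of its group, and without it the change was −2.60. In SKOV3 the change was 1.51 (standard error 0.76, adjusted p = 0.0836), and it passed under 5 alternatives. These were removal of the GC trend (2.36, adjusted p = 0.0202 from edgeR), scaling by library size only (2.37, adjusted p = 0.00912), no filter on low counts (1.56, adjusted p = 0.00069), and leaving out SKOV3_PAE replicate 3 (1.99, adjusted p = 0.0134) or SKOV3/DDP replicate 2 (1.51, adjusted p = 0.0456). The difference between the lines in the effect of PAE was −3.74 (standard error 0.88, adjusted p = 0.00167).

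NKD1, a cytoplasmic protein that binds Dishevelled and dampens WNT signalling, is encoded at chr16:50548396-50649249 on the forward strand (Gene ID 85407). It was at 3.81, 2.3 and 2.46 CPM in SKOV3, 2.67, 2.89 and 1.84 in SKOV3_PAE, 26.8, 11.9 and 22.6 in SKOV3/DDP, and 19.5, 20.5 and 26.0 in SKOV3/DDP_PAE. The lines did not overlap, while within each line the untreated and treated libraries did. NKD1 was higher in untreated SKOV3/DDP by a log2 fold change of 2.78 (standard error 0.38, adjusted p = 0.000147) and by 3.15 with PAE in both lines (standard error 0.35, adjusted p = 2.45e-06). With PAE the log2 fold change was 0.10 in SKOV3/DDP (adjusted p = 0.854) and −0.21 in SKOV3 (adjusted p = 0.603). Of the cytoplasmic inhibitors, AXIN2 therefore had a called decrease with PAE in SKOV3/DDP and NKD1 did not.

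RNF43, a membrane ubiquitin ligase that marks Frizzled receptors for removal, is encoded at chr17:58352500-58418894 on the reverse strand (Gene ID 54894). Its level was 3.02, 2.73 and 3.47 CPM in SKOV3 and 3.6, 3.35 and 2.84 CPM in SKOV3_PAE. It was 264, 131 and 215 CPM in SKOV3/DDP and 38.8, 38.7 and 60.0 CPM in SKOV3/DDP_PAE. The SKOV3 groups overlapped, and the other groups were separate, in the same order as for AXIN2. The group means were 3.07 ± 0.377, 3.27 ± 0.388, 203 ± 67.3 and 45.9 ± 12.3 CPM (SD, n = 3 each). RNF43 was higher in untreated SKOV3/DDP by a log2 fold change of 5.98 (standard error 0.32, adjusted p = 1.26e-06), and by 3.81 with PAE in both lines (standard error 0.30, adjusted p = 6.36e-08). PAE lowered it in SKOV3/DDP by −2.15 (standard error 0.27, adjusted p = 0.000128), and by −2.38 without SKOV3/DDP replicate 2. In SKOV3 the change was 0.09 (adjusted p = 0.81), and the difference between the lines was −2.23 (standard error 0.40, adjusted p = 0.000157). By library size only, the change in SKOV3 was 0.96 with an adjusted p of 0.0109 in edgeR's test, a scaling that also moved the median over all genes from 0.48 to 1.36.

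ZNRF3, the paralog of RNF43 with the same action on receptors, is encoded at chr22:28800657-29057488 on the forward strand (Gene ID 84133). It was measured at 23.1, 13.0 and 20.7 CPM in SKOV3, 17.3, 21.5 and 23.3 in SKOV3_PAE, 64.5, 39.7 and 70.1 in SKOV3/DDP, and 50.9, 50.0 and 59.9 in SKOV3/DDP_PAE. All SKOV3/DDP libraries were above all SKOV3 libraries, and PAE left the groups of each line overlapping. The log2 fold change between the lines was 1.56 untreated (standard error 0.30, adjusted p = 0.00105) and 1.37 with PAE (standard error 0.26, adjusted p = 0.000438). With PAE it was −0.12 in SKOV3/DDP (adjusted p = 0.785) and 0.13 in SKOV3 (adjusted p = 0.665). In SKOV3 it was 1.01 by library size only and 0.91 with the GC trend removed, and passed the threshold under both. The interaction term was −0.25 (adjusted p = 0.585), and −0.98 with the GC trend removed (adjusted p = 0.0219 from edgeR). The difference between the lines was smaller for ZNRF3 than for RNF43 by these values, without a test of the genes against each other.

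LGR5, the R-spondin receptor that marks intestinal stem cells, is encoded at chr12:71439798-71586310 on the forward strand (Gene ID 8549). No LGR5 count was found in the 3 SKOV3 libraries, which allows up to 0.0862 CPM. It was at 0.465, 0.203 and 0.158 CPM in SKOV3_PAE, 6.23, 2.97 and 6.61 in SKOV3/DDP, and 1.37, 0.517 and 0.55 in SKOV3/DDP_PAE. No group overlapped with another, although SKOV3_PAE rests on 15 counts in all. Against the limit of 3 counts in the group, LGR5 was at least 61.6-fold higher in untreated SKOV3/DDP than in SKOV3 (263 against 0 counts, adjusted p = 0.000125 from edgeR), and at least 3.11-fold higher in SKOV3_PAE than in SKOV3 (adjusted p = 0.00638). The latter had an adjusted p of 0.088 in edgeR's test with the GC trend removed. PAE lowered LGR5 in SKOV3/DDP by a log2 fold change of −2.68 (standard error 0.55, adjusted p = 0.00392). With PAE in both lines it was higher in SKOV3/DDP by 1.56 (standard error 0.62, adjusted p = 0.0486), a call lost under 8 alternatives, among them removal of the GC trend (1.57, adjusted p = 0.0505 in edgeR's test) and leaving out SKOV3/DDP_PAE replicate 1 (0.95, adjusted p = 0.253). The interaction term was −7.90 (standard error 1.48, adjusted p = 0.000391), a fitted value that depends on how the count of 0 in SKOV3 is treated.

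**Figure D3:**
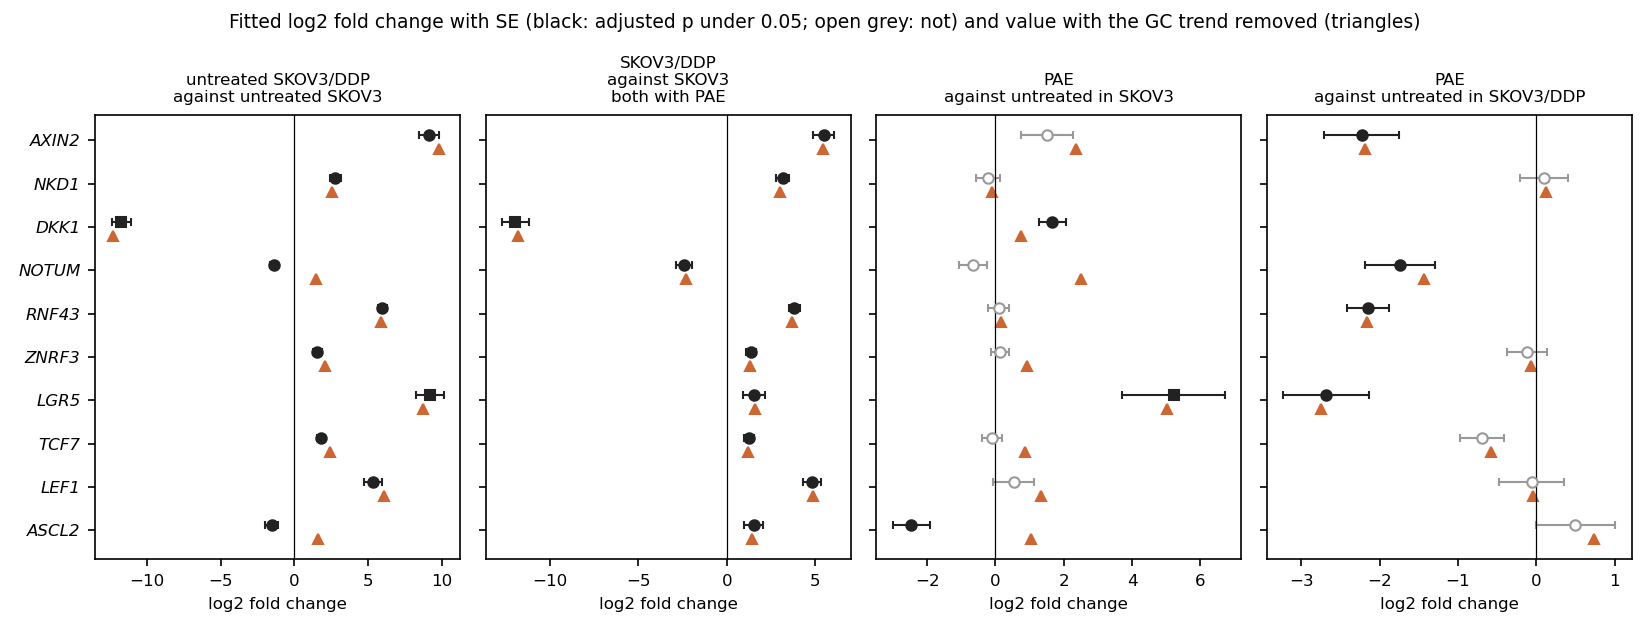
Fitted log2 fold change of each feedback gene with its standard error in 4 comparisons (panels, each with its own axis), in black where the adjusted p is under 0.05 and open grey where it is not; squares mark a group with at most 3 counts, whose fitted fold is no bound. Triangles give the value with the GC and length trend removed: NOTUM and ASCL2 change side between the untreated lines, NOTUM, ASCL2 and TCF7 in SKOV3, and the values in SKOV3/DDP stay close; DKK1 has no fold in SKOV3/DDP.

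DKK1, a secreted protein that blocks the co-receptors LRP5 and LRP6, is encoded at chr10:52314281-52317657 on the forward strand (Gene ID 22943), and its start lies within the window printed above. It was at 20.3, 35.2 and 33.3 CPM in SKOV3 and at 42.1, 143 and 97.9 CPM in SKOV3_PAE. No count was found in the 3 untreated SKOV3/DDP libraries, which allows up to 0.0606 CPM, and 1 count in the 3 SKOV3/DDP_PAE libraries. DKK1 was at least 491-fold lower in untreated SKOV3/DDP than in SKOV3 (0 against 1035 counts, adjusted p = 7.19e-06 from edgeR). With PAE in both lines, 5406 counts in SKOV3 stood against 1 in SKOV3/DDP, a 5790-fold ratio (95% counting interval 1040 to 229000). PAE raised DKK1 in SKOV3 by a log2 fold change of 1.67 (standard error 0.39, adjusted p = 0.00154), and every treated library was above every untreated one. With the GC trend removed the change was 0.76 and no longer passed (adjusted p = 0.136 in edgeR's test). Both SKOV3/DDP groups were at or under 3 counts, so no fold was computed for PAE there.

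NOTUM, a secreted enzyme that removes the lipid WNT ligands need for receptor binding, is encoded at chr17:81952507-81961187 on the reverse strand (Gene ID 147111). Its level was 15.1, 12.6 and 10.2 CPM in SKOV3, 6.86, 13.6 and 3.42 in SKOV3_PAE, 5.31, 4.1 and 5.69 in SKOV3/DDP, and 1.57, 0.987 and 1.98 in SKOV3/DDP_PAE. SKOV3/DDP_PAE was the lowest group without overlap, and SKOV3_PAE spread across the range of its neighbours. NOTUM was lower in SKOV3/DDP by a log2 fold change of −1.38 untreated (standard error 0.27, adjusted p = 0.00119) and −2.40 with PAE in both lines (standard error 0.45, adjusted p = 0.000386). The untreated difference turned to 1.45 with the GC trend removed, a call in the opposite direction (adjusted p = 0.00168 from edgeR). NOTUM, at 66.5% GC, is the most GC-rich of these genes after ASCL2. PAE lowered it in SKOV3/DDP by −1.74 (standard error 0.45, adjusted p = 0.0112), which did not pass without SKOV3/DDP_PAE replicate 2 (−1.47, adjusted p = 0.0534 in edgeR's test). In SKOV3 the change with PAE was −0.66 (adjusted p = 0.16), and 2.50 with the GC trend removed (adjusted p = 0.00015 from edgeR). The interaction term was −1.07 (adjusted p = 0.136), and −3.93 with the GC trend removed (adjusted p = 0.000106 from edgeR). The secreted inhibitors were thus the feedback genes that were lower in SKOV3/DDP both without and with PAE, with that exception for NOTUM untreated.

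TCF7, a β-catenin partner on DNA, is encoded at chr5:134114681-134148229 on the forward strand (Gene ID 6932). It was at 13.7, 7.84 and 12.7 CPM in SKOV3, 11.6, 12.7 and 7.52 in SKOV3_PAE, 40.2, 39.3 and 43.8 in SKOV3/DDP, and 25.7, 32.8 and 17.7 in SKOV3/DDP_PAE. The lines were separate, and in SKOV3/DDP the treated libraries lay below the untreated ones. TCF7 was higher in SKOV3/DDP by a log2 fold change of 1.79 untreated (standard error 0.25, adjusted p = 0.000167) and 1.26 with PAE in both (standard error 0.29, adjusted p = 0.00174). With PAE the change was −0.69 in SKOV3/DDP (standard error 0.28, adjusted p = 0.082) and −0.11 in SKOV3 (adjusted p = 0.747). The former passed at −0.73 with limma-voom (adjusted p = 0.0411) and at −0.71 with SKOV3/DDP alone in the fit (adjusted p = 0.0459 from edgeR). The latter turned to 0.77 by library size only and to 0.87 with the GC trend removed (adjusted p = 0.03 and 0.0175 from edgeR). The interaction term was −0.58 (adjusted p = 0.221), and −1.45 with the GC trend removed (adjusted p = 0.0082 from edgeR).

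LEF1, a paralog of TCF7 with the same role, is encoded at chr4:108047548-108168932 on the reverse strand (Gene ID 51176). It was at 0.798, 0.767 and 0 CPM in SKOV3, 1.16, 0.66 and 0.474 in SKOV3_PAE, 23.1, 19.0 and 25.3 in SKOV3/DDP, and 20.0, 22.5 and 22.1 in SKOV3/DDP_PAE. The lines were far apart, and treated and untreated libraries of each line overlapped. LEF1 was higher in SKOV3/DDP by a log2 fold change of 5.35 untreated (standard error 0.63, adjusted p = 6.5e-05) and 4.81 with PAE in both (standard error 0.51, adjusted p = 1.68e-06). With PAE the change was −0.06 in SKOV3/DDP (adjusted p = 0.948) and 0.54 in SKOV3 (adjusted p = 0.426).

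ASCL2, a transcription factor of intestinal stem cells, is encoded at chr11:2268498-2270588 on the reverse strand (Gene ID 430). Its level was 2.75, 1.19 and 2.12 CPM in SKOV3, 0.407, 0.457 and 0.21 in SKOV3_PAE, 0.634, 0.631 and 0.918 in SKOV3/DDP, and 0.932, 1.55 and 0.605 in SKOV3/DDP_PAE. SKOV3_PAE was the lowest group without overlap, and both SKOV3/DDP groups overlapped. ASCL2 was lower in untreated SKOV3/DDP by a log2 fold change of −1.52 (standard error 0.43, adjusted p = 0.00926) and higher by 1.51 with PAE in both lines (standard error 0.54, adjusted p = 0.0271). PAE lowered it in SKOV3 by −2.47 (standard error 0.54, adjusted p = 0.000707), and the change in SKOV3/DDP was 0.50 (adjusted p = 0.502). The interaction term was 2.97 (standard error 0.74, adjusted p = 0.00262). ASCL2 has a GC content of 69.2%. With the GC trend removed its log2 value was 1.59 between the untreated lines, a call in the opposite direction (adjusted p = 0.017 from edgeR). It was then 1.04 in SKOV3 and −0.31 for the interaction, and neither passed (adjusted p = 0.11 and 0.765 in edgeR's test). The call with PAE in both lines was lost without SKOV3/DDP_PAE replicate 2 (1.09, adjusted p = 0.138 in edgeR's test).

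Groups next to each other in the order of a gene's means were also compared by 2-sided exact permutation tests, 30 pairs in all. With 3 libraries against 3, the smallest p that the exact test allows is 0.1, and no pair was under 0.188 after Benjamini-Hochberg adjustment. To compare the genes with one another, CPM was divided by the gene length in kilobases. On this scale AXIN2 was the most abundant feedback gene in untreated SKOV3/DDP, with a mean level of 48.5 CPM per kb, followed by RNF43 at 27.1, ZNRF3 at 6.6 and LEF1 at 6.06, and DKK1 was at 0. In SKOV3/DDP_PAE, AXIN2 was at 10.3 CPM per kb, RNF43 at 6.12, ZNRF3 at 6.08 and LEF1 at 5.79. In SKOV3 the order was led by the secreted inhibitors, with DKK1 at 16.4 CPM per kb and NOTUM at 5.68, ahead of ZNRF3 at 2.15 and ASCL2 at 1.36. With PAE in SKOV3, DKK1 was at 52.3 CPM per kb, NOTUM at 3.58 and ZNRF3 at 2.35.

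The levels of AXIN2 were set beside those of all other genes of the 12-library fit by Pearson's r of log2(CPM + 1) over the 12 libraries. This describes the pattern and has no test, since the points fall into the 4 groups and share their libraries' depth and base composition. Of 17132 genes, the 5 most like AXIN2 were NAT16 (r = 0.995), LRATD1 (0.994), KLRK1-AS1 (0.993), ONECUT3 (0.992) and RPE65 (0.992). Among the feedback genes RNF43 was the closest, at r = 0.987 and rank 23, followed by LEF1 at 0.968 and NKD1 at 0.945. TCF7 was at 0.933, ZNRF3 at 0.918 and LGR5 at 0.888. ASCL2 was at −0.190, NOTUM at −0.590 and DKK1 at −0.929.

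The rest of the WNT pathway was described by a list of 94 genes in 9 roles. Between the untreated lines 73 were tested, of which 30 were higher in SKOV3/DDP, 34 lower and 9 not called, against 46.1% of all genes called higher and 38.5% lower. On the log2 scale their median was −0.25, against 0.41 over all genes and 2.28 for the feedback genes, which has the limits of choice and counts given above. With the GC trend removed, 33 of the listed genes were higher and 22 lower, against 5841 and 3950 of 13982 genes tested. By library size only the listed genes gave 34 and 30, against 8256 and 4685 of 15323. With PAE in both lines, 20 of 76 were higher and 23 lower, with a median of 0.04, against 27.5% and 27.1% of all genes. Of 12 WNT ligands tested untreated, 3 were higher and 8 lower in SKOV3/DDP. With PAE in both lines, 1 of 13 was higher, 4 were lower and 8 were not called. WNT5A, a ligand that acts largely without β-catenin, had means of 35.5 CPM in SKOV3, 566 in SKOV3_PAE, 0.124 in SKOV3/DDP and 0.24 in SKOV3/DDP_PAE. Of 17 receptors, 8 were higher and 8 lower untreated, and 3 were higher and 10 lower with PAE in both lines. The Frizzled receptor genes FZD9 and FZD8 had means of 97.2 and 65.0 CPM in SKOV3 and no count in the SKOV3/DDP groups. FZD8 was therefore at least 1070-fold lower in untreated SKOV3/DDP, and at least 91.0-fold lower with PAE in both lines. All 3 Dishevelled genes were lower in untreated SKOV3/DDP, whereas with PAE in both lines 1 was higher and 2 were not called. Genes listed under β-catenin destruction were higher in 7 and lower in 3 of 11 untreated. The 7 include TNKS and TNKS2, which are regulators of the destruction complex and not parts of it. With PAE in both lines 3 of the 11 were higher, 1 was lower and 7 were not called. Nuclear effectors were higher in 5 and lower in 6 of 12 untreated, and in 4 and 2 with PAE in both lines. With PAE in both lines, TLE4, a co-repressor, was 3.65 higher in SKOV3/DDP on the log2 scale (standard error 0.33), whereas PYGO1, a β-catenin co-factor, had no count in the SKOV3/DDP groups and was at least 645-fold lower.

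Other known targets of the pathway went both ways between the untreated lines, with 5 of 11 higher and 4 lower. Of all genes tested, 46.1% were called higher and 38.5% lower there. The 4 lower targets were SP5, CD44, EPHB2 and MYC, with log2 fold changes of −4.13, −3.45, −1.95 and −1.06. TNFRSF19, a receptor of the tumour necrosis factor family, had means of 0.0874 CPM in SKOV3, 0.194 in SKOV3_PAE, 63.6 in SKOV3/DDP and 4.36 in SKOV3/DDP_PAE. It had 3 counts in untreated SKOV3, a 748-fold ratio (95% counting interval 256 to 3630). APCDD1, a membrane inhibitor of WNT signalling, had means of 0.113, 0.0702, 73.6 and 9.75 CPM in the same order, and was higher in untreated SKOV3/DDP by a log2 fold change of 9.16 (standard error 0.71). PROX1, a homeobox factor, had means of 0.058, 0.589, 14.7 and 26.0 CPM, from 2 counts in SKOV3, a 258-fold ratio (interval 71.2 to 2130). APCDD1 and TNFRSF19 had the order of groups seen for AXIN2 and RNF43 in SKOV3/DDP, high untreated and lower with PAE, whereas PROX1 did not.

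**Figure D4:**
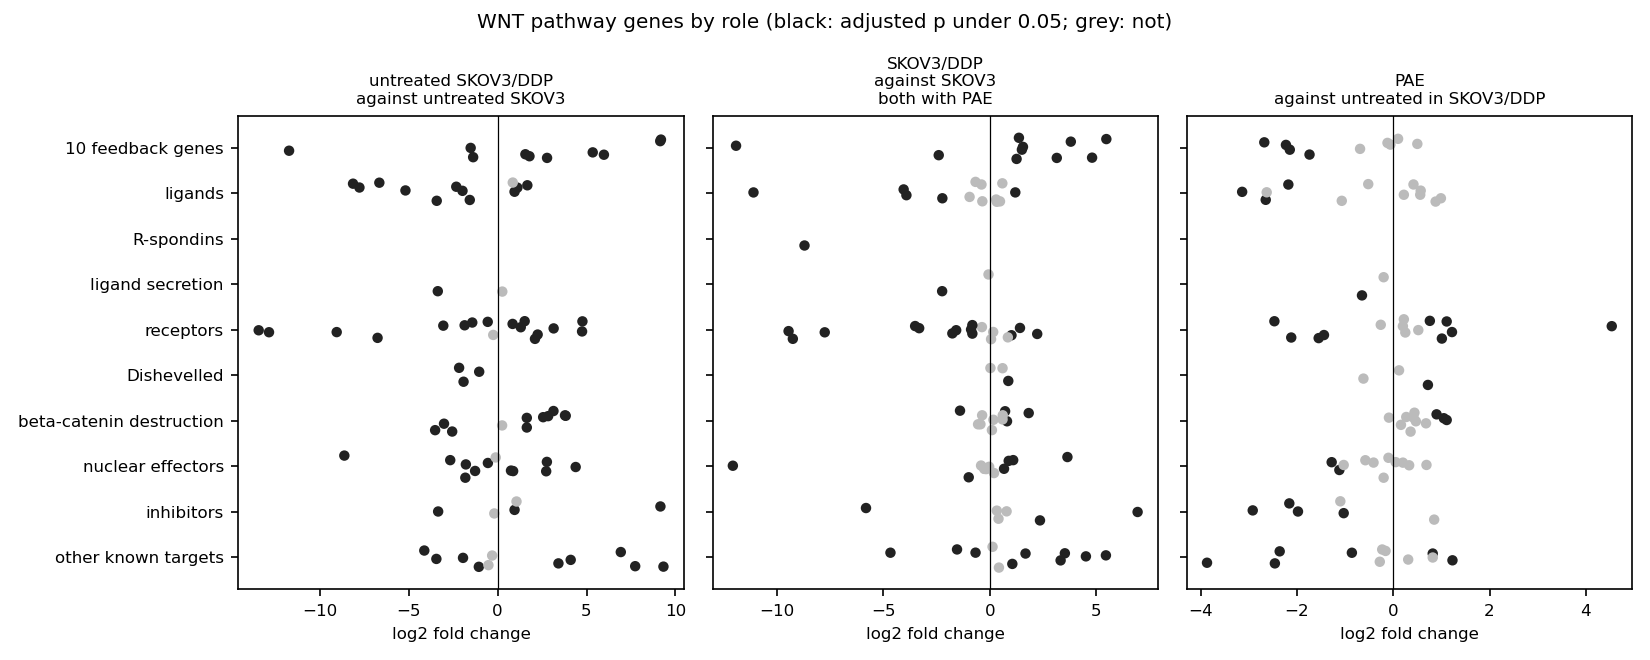
Fitted log2 fold change of the tested WNT pathway genes by role (rows) in 3 comparisons (panels, each with its own axis), each point a gene, black where the adjusted p is under 0.05; genes with at most 3 counts in both groups are left out, and the far points include fitted values of genes with no count in a group. With PAE in SKOV3/DDP, the called inhibitors all lie below 0 and the called genes of β-catenin destruction above it.

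With PAE in SKOV3/DDP, 11 of 76 listed genes rose, 18 fell and 47 did not pass, against 11.8% of all genes called higher and 14.7% lower. The median was 0.08 once 6 genes without a fold were left out. Of 6 inhibitors tested, 4 fell (APCDD1, KREMEN2, DKK3 and KREMEN1) and none rose. The number that rose was 0 also at an unadjusted p under 0.05 in edgeR, with DESeq2 and with limma-voom. KREMEN2, a co-receptor of DKK proteins, went from a mean of 58.5 to 13.0 CPM. APCDD1 changed by a log2 fold change of −2.92 (standard error 0.40, adjusted p = 0.000259 from edgeR). Of 11 other known targets, 4 fell (TNFRSF19, CCND1, SOX9 and CD44) and 2 rose (EPHB3 and SP5). CCND1, which encodes cyclin D1, went from a mean of 1250 to 227 CPM, and SOX9, a factor of epithelial progenitors, from 604 to 118 CPM. TNFRSF19 changed by −3.87 (standard error 0.62) and EPHB3, an ephrin receptor, by 1.23 (standard error 0.34). Of 13 ligands, 3 fell and 0 rose in edgeR (1 at an unadjusted p under 0.05, 1 with DESeq2 and 0 with limma-voom). WNT6 went from 25.8 ± 12.9 to 4.1 ± 1.23 CPM (SD, n = 3 each), which is −2.65 on the log2 scale (standard error 0.41). Of 17 receptors, 5 rose and 4 fell, and the Frizzled genes FZD7 and FZD1 rose by 1.22 and 1.11. Of 11 genes of β-catenin destruction, 3 rose and 0 fell, and the number that fell was 0 also at an unadjusted p under 0.05 and with both other tools. Of 12 nuclear effectors 2 fell and 0 rose (1 at an unadjusted p under 0.05, 0 with DESeq2 and 1 with limma-voom). Together with AXIN2, RNF43 and LGR5, the genes named as falling include inhibitors and targets, while most listed genes did not pass.

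In SKOV3, PAE was followed by a rise of 26 of 76 listed genes and a fall of 37, against 42.6% of all genes called higher and 32.7% lower, with a median of −0.66 against 0.48 over all genes. With the GC trend removed 29 rose and 9 fell, against 6323 and 2125 of 15090 genes tested. By library size only 35 rose and 22 fell, against 9058 and 3834 of 17133. LGR4, an R-spondin receptor like LGR5, rose from 1.19 ± 0.972 to 21.5 ± 4.02 CPM, and FZD3 from 0.569 ± 0.426 to 9.37 ± 1.67 CPM (SD, n = 3 each), though FZD3 no longer passed with the GC trend removed (0.86, adjusted p = 0.0912 from edgeR). WNT5A rose by a log2 fold change of 3.99 (standard error 0.41). FZD9, WNT9A and FZD8 fell by −4.20, −4.16 and −3.83. With the GC trend removed these 3 values were −0.99, −1.96 and −1.11. LGR4 and WNT5A were then at 2.1 and 1.64, and all 5 genes were still called. The difference in the effect of PAE between the lines was read with and without the GC trend. With it removed, 9 listed genes were called higher and 23 lower, against 1926 and 5061 of 15090 genes tested. In the main fit, 23 listed genes were called higher and 26 lower, against 25.5% and 37.4% of all genes. Among those with 5 CPM or more on average in a group, WNT9A (4.73), EPHB3 (3.99) and APC2, a relative of the destruction complex scaffold APC (3.76), were the highest by log2 value, and TNFRSF19 (−4.88), FZD4 (−4.22) and LGR4 (−3.98) the lowest. With the GC trend removed the value of TNFRSF19 was −3.14 and did not pass (adjusted p = 0.139 from edgeR). WNT9A, EPHB3 and APC2 were then at 2.72, 1.7 and 1.61, and FZD4 and LGR4 at −3.05 and −2.05, all still called.

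Other measures moved with the lower AXIN2, RNF43 and LGR5 of PAE-treated SKOV3/DDP. The 9 intestinal markers summed to 559–607 CPM untreated and 180–272 with PAE, with CDX2 at 163 and 39.0 on average. The 6 epithelial markers summed to 10600–12900 CPM untreated and 2340–3350 with PAE in SKOV3/DDP, and to 8070–8850 and 2590–3480 in SKOV3. Mitochondrial genes took 8.66% to 11.19% of counts in untreated SKOV3/DDP and 3.93% to 8.67% with PAE. The 6 fibroblast markers summed to 14.3–18.3 CPM in SKOV3, 12.5–30.2 in SKOV3_PAE, 4.5–5.68 in SKOV3/DDP and 0.66–1.93 in SKOV3/DDP_PAE, with COL1A2 at 0 in all groups. The 4 leukocyte markers, nearly all of it CD14, summed to 62.9–72.5, 22.7–39.3, 2.25–3.12 and 1.65–1.91 CPM, with LST1 at 0 in all groups. The part of these differences in the results was not tested, and in bulk RNA fewer cells that express a gene cannot be told apart from less RNA per cell. Genes that overlap RNF43, ZNRF3, LGR5 and LEF1 had means of at most 1.66 CPM, with TSPOAP1-AS1 beside RNF43 the highest. LEF1-AS1 had a mean of 0.805 CPM in SKOV3, where LEF1 had 0.522, and of 0.0384 in SKOV3/DDP. The strand of counting is not stated, and the part of such overlaps in the levels was not tested.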

How the data were processed

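Poly-A RNA of 12 cultures was sequenced from NEBNext Ultra libraries. The authors deposited raw counts, whole numbers of reads per gene in each library. The submitters' processing notes name HISAT2 2.0.5, StringTie 1.3.3b, DESeq2 and edgeR without their roles; the counting program and the strand counted are not given in the sources used here. The 869 loci without a gene name (0.126% to 0.678% of the deposited counts) were left out. In R 4.3.3, edgeR 4.0.16 was used with filterByExpr, TMM factors and quasi-likelihood tests, adjusted by Benjamini-Hochberg and called at 0.05. The untreated lines were fitted on their 6 libraries alone, the other comparisons in 1 fit of 12. Each standard error is the fold change divided by the root of F. Folds against a group with 0 to 3 counts were taken from counts over the TMM-scaled library totals. The scripts were tested on simulated data. Replicate numbers did not pair the samples (mean correlations of −0.0696 to 0.0456), and no library was a duplicate.

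The feedback genes and gene lists were chosen with earlier results of these data known. By rule, all 10 feedback genes were named, and in each comparison the 3 listed pathway genes of each sign with the largest log2 fold change, an adjusted p under 0.05 and 5 CPM or more on average in the higher group, and the 5 genes most like AXIN2. CCND1, SOX9, CD44, SP5, EPHB2, MYC, KREMEN1, KREMEN2 and DKK3 were named after their values were seen. Alternatives were DESeq2 1.42.0, limma-voom (limma 3.58.1), scaling by library size only, no filter, a minimum of 10 counts throughout, the replicate block, each line alone, all 12 libraries for the untreated lines, each library left out in turn, and removal of each library's trend with GC and length (5 spline degrees of freedom, genes averaging 2 or more log2 CPM, GC from GENCODE). GC content was known for 91.2% of genes in the 6-library fit and 88.1% in the 12-library fit. Promoter windows came from RefSeq. 2 genes of the marker lists are not reported here and were left out of the sums.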

Additional observations from a re-analysis of the deposited data

Results flagged for a closer look

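The effect of PAE differed between SKOV3/DDP and SKOV3 for 4 of the 10 feedback genes by the interaction term of edgeR's fit, adjusted by Benjamini-Hochberg. For AXIN2 the log2 difference was −3.74 (adjusted p = 0.00167), from a fall in SKOV3/DDP and a change of 1.51 in SKOV3 that was not called (adjusted p = 0.0836) but passed under 5 alternatives, among them removal of the GC trend at 2.36 and library size only at 2.37. It stayed between −4.55 and −2.89 under the alternatives. For RNF43 it was −2.23 (adjusted p = 0.000157), between −2.97 and −1.97 under the alternatives. For LGR5 it was −7.90 (adjusted p = 0.000391), a fitted value whose size depends on the absence of counts in untreated SKOV3. For ASCL2 it was 2.97 (adjusted p = 0.00262), and −0.31 with an adjusted p of 0.765 once the trend with GC and length was removed.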

How the results depend on the processing

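Of the values of single feedback genes under the alternatives, 848 kept their side of the threshold, 20 newly passed, 17 no longer passed and 7 reversed. A reversal was counted only where the main or the alternative value was called. Values called in neither could therefore change sign and still be among the 848. With the GC and length trend removed, NOTUM reversed between the untreated lines (1.45) and with PAE in SKOV3 (2.50), ASCL2 in both (1.59 and 1.04) and in the interaction (−0.31), and TCF7 with PAE in SKOV3 (0.87, and 0.77 by library size only). With that trend removed, 1 gene was lower between the untreated lines, 4 rose and 0 fell with PAE in SKOV3, and the interaction called 0 higher and 6 lower. By library size only these were 1 lower between the untreated lines, 7 higher in SKOV3 and 6 lower for the interaction. Over all 17133 genes, 7808 were called lower by the interaction in that setting. Asking for at least 10 counts in every library left out AXIN2, DKK1, LGR5 and LEF1, and ASCL2 except between the untreated lines. It gave 4 higher between the untreated lines, where 4884 of 11012 genes were called higher and 4380 lower. With PAE in SKOV3 it gave 0 higher and 0 lower, against 4756 and 4343 of 10594 genes. In SKOV3/DDP 2 were lower, against 1894 of all genes. For the interaction 0 were higher and 1 lower, against 3717 and 4509. With PAE in both lines 4 were higher and 1 lower, against 2829 and 2657. In SKOV3, DESeq2 called 2 lower, and the line alone gave 1 higher. Leaving out each library gave 1 to 2 lower and 2 to 3 higher in SKOV3 (2 lower without SKOV3_PAE replicate 2, NOTUM at −1.29), 3 to 4 lower in SKOV3/DDP, 3 to 4 lower for the interaction, and 6 to 8 higher with PAE in both lines. Leaving out a library changed no call between the untreated lines. With PAE in both lines, LGR5 no longer passed without SKOV3_PAE replicate 2 or 3, SKOV3/DDP replicate 1 or 3, or SKOV3/DDP_PAE replicate 1 (0.95 to 1.55), nor ASCL2 without SKOV3_PAE replicate 1 or 3 or SKOV3/DDP_PAE replicate 2 (1.09 to 1.60), and without SKOV3_PAE replicate 3 the interaction of NOTUM passed at −1.41. NOTUM and ASCL2 no longer passed between the untreated lines by library size only (−0.63 and −0.78). The cause of these changes was not tested. The replicate block changed no count of feedback genes called, for example 4 lower with PAE in SKOV3/DDP, while over all genes it gave 1721 higher and 2276 lower there, against 2014 and 2512. Counts over all genes are lower without SKOV3/DDP replicate 1 (1158 and 1657) and without SKOV3/DDP replicate 3 (1155 and 1682). Depth limits LGR5 in SKOV3, ASCL2 and AXIN2 in SKOV3, and DKK1 in SKOV3/DDP.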
